A study of Rattus norvegicus with 10 samples.

Results

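Tfam and Ppargc1a were followed in the right cerebral cortex of 10 fetal rats, 1 RNA-seq library per fetus. The pair was chosen by Ensembl identifier, chromosome included, and both were found in every file, 2 of the 26404 features listed. All fetuses were Sprague Dawley rats at embryonic day 21, each from its own dam. The dams of 5 fetuses had received oxytocin intravenously at 100 mcg per kg, and those of the other 5 had received saline in the same volume, with tissue taken 24 h later. Oxytocin is the peptide hormone that contracts the uterus, and the comparison addressed what its abnormal contraction does to transcripts of the fetal cortex. The mother was treated and not the fetus, a single dose and time were studied, and the labels used here give no sex of the fetuses. RNA was selected with oligo-dT from the whole cortex, so fewer cells of a type and less RNA per cell cannot be told apart.

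Mitochondria carry their own small genome, and its transcription depends on proteins encoded in the nucleus. Tfam, mitochondrial transcription factor A, is one of these: it coats and packages mitochondrial DNA and bends the promoters at which the mitochondrial RNA polymerase starts. Ppargc1a encodes PGC-1alpha, a coactivator that binds no DNA itself and works through nuclear factors such as NRF-1, the ETS-family factor GABP and the estrogen-related receptors, whose known targets include Tfam and the respiratory chain. In brain, PGC-1alpha is known for its part in the metabolism of inhibitory interneurons.

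Tfam (ENSRNOG00000000613) is listed on chromosome 20 from 20760387 to 20772300, plus strand, in 7 exon intervals that sum to 1469 bases, the last of them 766 bases long. Ppargc1a (ENSRNOG00000004473) is listed on chromosome 14 from 63195104 to 63286096, plus strand, in 13 exon intervals that sum to 2440 bases, and its last interval is 112 bases long. The build named in the submitters' processing notes is Rnor_5.0. Reads that fell beyond the last listed base of either gene were not counted. No other listed feature overlaps either span, the nearest lying 18434 bases before Tfam and 108733 bases after Ppargc1a. Whether reads are shared with a near-identical copy elsewhere was not tested.

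The 250 bases before each gene's start are printed because the known route from PGC-1alpha to Tfam runs through promoter sites of this kind. They come from RefSeq on build GRCr8, which is not the build of the counts, and both members were matched by symbol. The Tfam stretch is chr20:17355123-17355372, plus strand, and the Ppargc1a stretch is chr14:63634058-63634307, plus strand. Capitals mark matches to the searched motifs.
Tfam: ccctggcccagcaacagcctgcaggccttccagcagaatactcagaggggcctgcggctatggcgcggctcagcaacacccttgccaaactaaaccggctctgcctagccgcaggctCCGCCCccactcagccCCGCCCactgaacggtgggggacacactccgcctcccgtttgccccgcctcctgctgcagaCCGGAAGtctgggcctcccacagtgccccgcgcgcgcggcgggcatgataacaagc
Ppargc1a: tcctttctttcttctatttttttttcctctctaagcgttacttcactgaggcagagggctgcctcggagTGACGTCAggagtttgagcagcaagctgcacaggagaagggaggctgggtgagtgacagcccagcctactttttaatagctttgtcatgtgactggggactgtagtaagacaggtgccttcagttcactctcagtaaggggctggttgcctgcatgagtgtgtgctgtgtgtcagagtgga

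Both strands were searched for the NRF-1 core GCGCATGC, the ETS core CCGGAAG, the GC box GGGCGG, the cyclic AMP response element TGACGTCA, the estrogen-related receptor site TCAAGGTCA and the E-box CACGTG, and no matches overlapped. In Tfam the ETS core lay 56 to 50 bases before the start, and GC boxes on the minus strand, read as CCGCCC above, lay at 133 to 128 and at 117 to 112 bases. An ETS core was present in 7.27% and a GC box in 30.5% of the 33469 RefSeq promoters over the same length. In Ppargc1a the single match was the cyclic AMP response element, 181 to 174 bases before the start, a motif present in 1.59% of promoters. The other 3 motifs, with shares of 2.2% (NRF-1), 0.388% (estrogen-related receptor) and 5.59% (E-box), had no match in either window. GC content was 68.4% in the Tfam window and 50.4% in the Ppargc1a window, with a median of 51.2% over all promoters. Only exact words were searched in these windows, so a missing match does not show that a site is lacking. A match describes the letters of a window, and binding was not measured here.

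Library depth was 18555172 to 30404127 assigned counts. By edgeR's quasi-likelihood test, 0 of 14400 tested features (0%) had an adjusted p under 0.05. At an unadjusted p under 0.05 there were 514 (3.57%), 1.93% of features being higher and 1.64% lower after oxytocin, and neither member was among them. At an adjusted p under 0.05 limma called 0 of the same 14400, and DESeq2 called 11 of the 2193 features (of 20257) that its independent filtering left in the adjustment. The share of counts on the mitochondrial chromosome was 6.44% ± 0.15 in oxytocin fetuses and 5.72% ± 0.33 in saline fetuses (SD, n = 5 each), without overlap between the groups. None of the 129 symbols in 15 lists of biogenesis regulators, mitochondrial DNA and RNA factors, respiratory genes and cell type markers could be paired with an identifier, so the other nuclear genes of the pathway and the markers of cortex, interneurons, blood and other tissue were not analysed here. The tissue label was therefore not checked against markers.

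Tfam was a well expressed gene of the fetal cortex. In deposited RPKM, the deposited CPM per kilobase of listed exon, its mean level was 30.0, above 82.8% of the 20274 features with any count. Ppargc1a stood lower, at a mean of 5.97 RPKM, above 53.5% of those features. Within each library Tfam exceeded Ppargc1a per kilobase, from 3.09-fold in saline replicate 4 to 7.10-fold in saline replicate 2. In the oxytocin fetuses the same ratio ran only from 4.36 to 5.66. These levels and ratios rest on the listed exons. With its short last interval, Ppargc1a may be listed without its 3′ untranslated region, which was not tested. Reads from there would then be missing from its counts.

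After maternal oxytocin the level of Tfam was 42.7, 43.2, 43.9, 45.2 and 42.5 CPM in replicates 1 to 5. In the saline fetuses it was 40.8, 49.2, 45.9, 39.6 and 47.3 CPM. All 5 oxytocin fetuses lay inside the saline range, and 0 of the 5 saline fetuses lay inside the oxytocin range: replicates 1 and 4 were below it and replicates 2, 3 and 5 above it. Saline replicate 3 stood barely above oxytocin replicate 4, at 5.516 against 5.515 log2 CPM, and their Poisson intervals overlapped. The share of all features with this nested pattern was not computed. Groups did not overlap for 0.701% of all tested features, and both members were outside that share. Tfam averaged 43.5 ± 1.12 CPM in oxytocin fetuses and 44.6 ± 4.17 CPM in saline fetuses (SD, n = 5 each). The log2 fold change, oxytocin against saline, was -0.0082 ± 0.058 (SE), with a 95% interval from -0.13 to 0.12, and edgeR's quasi-likelihood test gave an adjusted p of 0.9997. As a fold this interval runs from 0.912 to 1.08. Tfam ranked 12688 of the 14400 features by p.

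Ppargc1a was at 16.2, 13.2, 14.2, 13.3 and 14.6 CPM in oxytocin replicates 1 to 5. In saline replicates 1 to 5 it was at 16.5, 11.5, 10.9, 21.3 and 14.0 CPM. The 5 oxytocin fetuses again lay inside the saline range, whose highest fetus, replicate 4, stood 1.95-fold above its lowest, replicate 3. Ppargc1a averaged 14.3 ± 1.23 CPM in oxytocin fetuses and 14.8 ± 4.24 CPM in saline fetuses (SD, n = 5 each). Its log2 fold change of -0.023 ± 0.16 (SE) had a 95% interval from -0.36 to 0.32 and, by the same edgeR fit, an adjusted p of 0.9997. The interval spans folds from 0.777 to 1.25, and changes within it are not excluded by these fetuses. Its mean log2 CPM differed in sign from the fit, 3.86 after oxytocin and 3.84 after saline. Without saline replicate 4, the fetus with the highest Ppargc1a, edgeR estimated the log2 fold change at 0.15 ± 0.12 (SE), and its adjusted p was 0.9993.

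**Figure D1:**
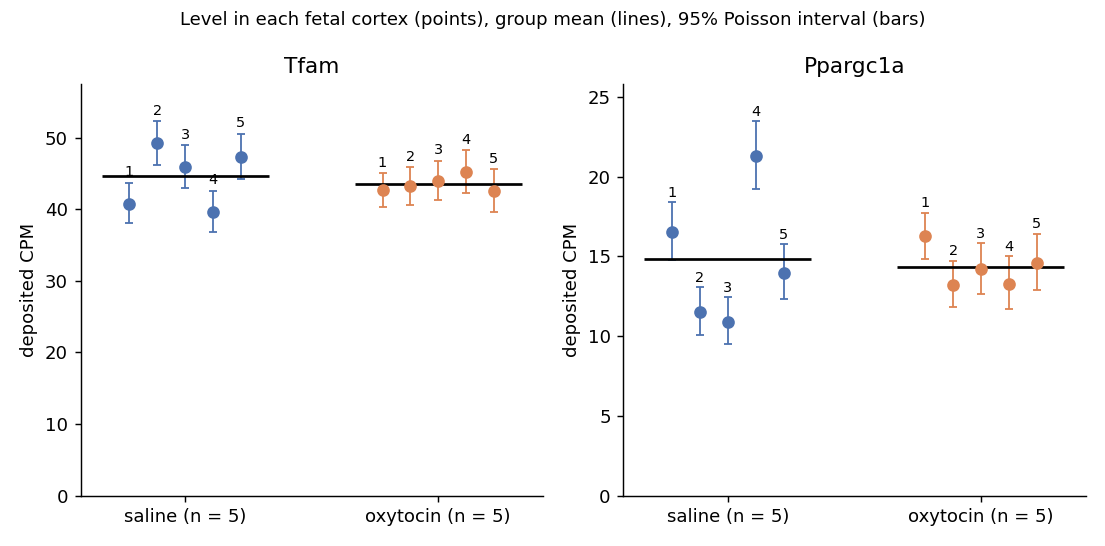
Deposited CPM of Tfam (left) and Ppargc1a (right) in each fetus, numbered by replicate, with the 95% Poisson interval of its count as bars and the group mean as a line. The oxytocin fetuses lie inside the saline range for both genes, and the saline fetuses spread more widely, from 39.6 to 49.2 CPM for Tfam and from 10.9 to 21.3 CPM for Ppargc1a.

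The spread between fetuses was smaller in the oxytocin group for both genes. The SD of log2 CPM of Tfam was 0.035 after oxytocin and 0.12 after saline, a ratio of 0.282. For Ppargc1a the SDs were 0.12 and 0.40, a ratio of 0.295. Across all tested features the median ratio was 0.786, and 68.8% of features had a lower SD in the oxytocin group. Ratios below those of Tfam and Ppargc1a were found for 3.10% and 3.67% of features. Leaving out 1 library moved the Tfam ratio between 0.157 (without oxytocin replicate 4) and 0.333, and the Ppargc1a ratio between 0.182 (without oxytocin replicate 1) and 0.426 (without saline replicate 4). These ratios were chosen after the values were seen and are given without a test.

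**Figure D2:**
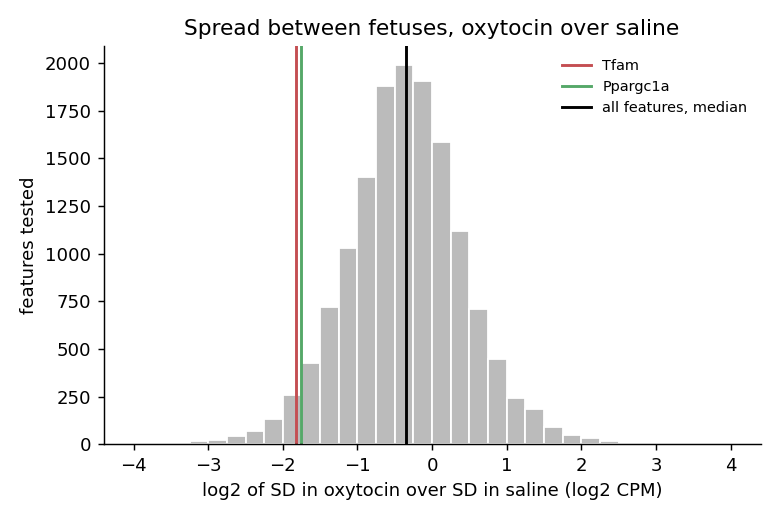
Histogram of the log2 ratio of the SD in the oxytocin group to the SD in the saline group for the 14400 tested features, with vertical lines at the median (-0.35), at Tfam (-1.83) and at Ppargc1a (-1.76). Both members lie in the left tail of a distribution whose median is itself below 0.

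Counting error was compared with this spread. Tfam had 741 to 1297 counts per library, and at the mean count of the oxytocin group Poisson error alone gives a coefficient of variation of 3.15%. The coefficient of variation of CPM was 2.57%. As a depth-adjusted measure, the squared deviation of each count from the count its library's total predicts, at 1 shared rate per group, was divided by that predicted count, summed and divided by the degrees of freedom; Poisson error alone gives about 1. This ratio was 0.606 for Tfam in oxytocin fetuses and 7.61 in saline fetuses, with 5 fetuses behind each. Ppargc1a had 215 to 494 counts per library, and its depth-adjusted ratio was 2.84 in oxytocin fetuses and 23.5 in saline fetuses. Single libraries weighed on these ratios: for Ppargc1a they were 0.676 without oxytocin replicate 1 and 9.88 without saline replicate 4, and for Tfam 0.218 without oxytocin replicate 4. PCR copies could not be recognised among the reads, so these values cover counting error only.

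The transcripts made from the DNA that Tfam packages had higher estimates than Tfam itself. Of the 13 protein genes on the mitochondrial chromosome, 13 had a log2 fold change above 0, from 0.17 to 0.36 with a median of 0.22. Together they held 5.98% of counts in oxytocin fetuses and 5.24% in saline fetuses on average, most of the mitochondrial share. Their direction therefore largely restates the difference in that share. The median over all tested features was -0.0031. By edgeR's quasi-likelihood test 0 of the 13 had an adjusted p under 0.05, as did 0 of all 14400 features. The unadjusted p of the same test ran from 2.1e-05 (mt-nd2) to 0.0094 (mt-co3), and 3.57% of all features were under 0.05. The 95% interval of Tfam ended at 0.12, below the mitochondrial median of 0.22, which has no interval here. It lay below the intervals of mt-nd1, mt-nd2, mt-atp6, mt-nd4 and mt-nd6. It overlapped those of the other mitochondrial protein genes, which began as low as 0.049 (mt-co3). The interval of Ppargc1a, ending at 0.32, contained that median.

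**Figure D3:**
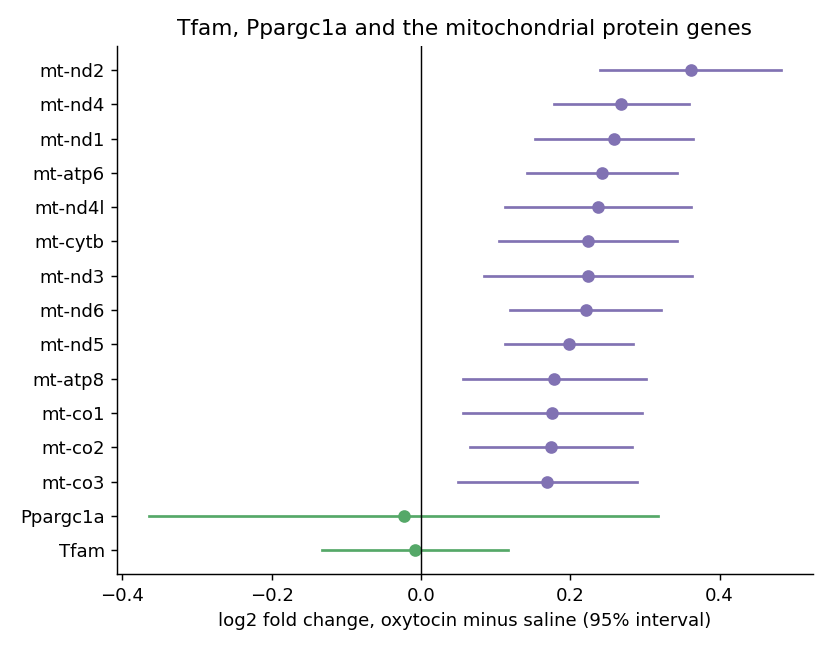
Log2 fold change, oxytocin minus saline, with its 95% interval from edgeR's quasi-likelihood fit, for Tfam and Ppargc1a and for the 13 mitochondrial protein genes. The intervals of Tfam (-0.13 to 0.12) and Ppargc1a (-0.36 to 0.32) span 0, and the mitochondrial estimates lie between 0.17 and 0.36.

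Whether the mitochondrial share changed by a different amount than each regulator was tested within libraries, as the log2 ratio of mitochondrial counts to the counts of the gene. Each oxytocin library held 1409 to 1531 mitochondrial counts for every Tfam count. The saline libraries held 1470, 1151, 1281, 1491 and 1094 in replicates 1 to 5. The oxytocin group was higher by 0.20 on the log2 scale, with 2 of its 5 fetuses above the highest saline fetus, and the groups overlapped (exact permutation test, two-sided, p = 0.0714, adjusted p = 0.214 over 3 ratios). Leaving out each library in turn, 9 of 10 differences did not pass the threshold. The exception was without saline replicate 4, at 0.25 (exact permutation test, two-sided, adjusted p = 0.0476), and the smallest was without saline replicate 5, at 0.14 (exact permutation test, adjusted p = 0.333). The separation of the groups in mitochondrial share was known before this ratio was chosen.

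For Ppargc1a the mitochondrial counts per count of the gene ran from 3886 to 4997 after oxytocin and from 2775 to 5400 after saline. The difference was 0.18 on the log2 scale, and 0 of the 5 oxytocin fetuses exceeded the highest saline fetus (exact permutation test, two-sided, p = 0.349, adjusted p = 0.524 over 3 ratios). Saline replicate 4 weighed most on this value: without it the difference was 0.054, and without saline replicate 3 it was 0.29, neither past the threshold. The ratio of Tfam to Ppargc1a differed by -0.018 between the groups (exact permutation test, two-sided, p = 0.929, adjusted p = 0.929 over 3 ratios). The smallest p this design allows is 0.0079.

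Each gene was then set against the mitochondrial share fetus by fetus. Because the treatment groups form separate clusters in that share, no correlation over the pooled fetuses is given, and deviations from the group means were used. For Tfam, Pearson's r was -0.54 (exact two-sided permutation within groups, p = 0.243, adjusted p = 0.487 over 2 genes) and Spearman's rho was -0.48 (exact permutation p = 0.232, adjusted p = 0.465), n = 10. Without saline replicates 2 and 5, the fetuses farthest from the median share of all 10, r was -0.069. Without saline replicate 2 alone r was -0.591, and without saline replicate 5 alone it was -0.468. For Ppargc1a, r was 0.17 (exact two-sided permutation within groups, p = 0.774, adjusted p = 0.774 over 2 genes) and rho was 0.15 (exact permutation p = 0.747, adjusted p = 0.747), and r was -0.095 without the same fetuses. Saline replicate 5 had the lowest mitochondrial share, 5.17%, and ranked 2 of 10 for Tfam. Oxytocin replicate 2 had the highest share, 6.61%, and ranked 6 for Tfam and 8 for Ppargc1a.

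**Figure D4:**
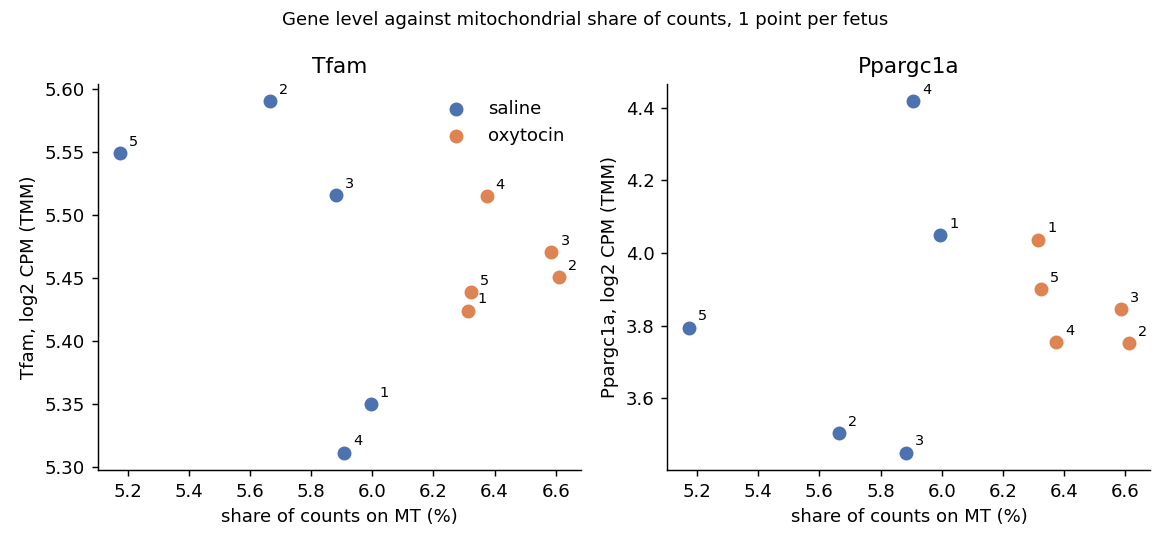
Log2 CPM (TMM-scaled) of Tfam (left) and Ppargc1a (right) against the percentage of counts on the mitochondrial chromosome, 1 numbered point per fetus, coloured by group. The groups separate along the horizontal axis (saline from 5.17%, oxytocin from 6.31% to 6.61%) and overlap along the vertical axes.

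The pair tended to opposite ranks across the fetuses, most plainly in saline replicates 1 to 4. Saline replicate 4 had the highest Ppargc1a, 4.42 log2 CPM, and the lowest Tfam, 5.31 log2 CPM. Saline replicate 1 ranked 2 for Ppargc1a, at 4.05, and 9 of 10 for Tfam, at 5.35. Saline replicates 2 and 3, the lowest for Ppargc1a at 3.50 and 3.45, ranked 1 and 3 for Tfam at 5.59 and 5.52. Other fetuses did not follow a strict reverse order: saline replicate 5 ranked 2 for Tfam and 6 for Ppargc1a, oxytocin replicate 2 ranked 6 and 8, and oxytocin replicate 3 ranked 5 for both. Across the saline group Tfam levels spanned 0.28 and Ppargc1a levels 0.97 on the log2 scale.

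This relation was noticed in the values and then tested on the same values, so its p is no independent evidence, and the adjustment covers only the 3 relations added after looking. On deviations from the group means r was -0.88 (exact two-sided permutation within groups, p = 0.0179, adjusted p = 0.0269 over 3 added relations) and rho was -0.82 (exact permutation p = 0.0338, adjusted p = 0.0506), n = 10. Without saline replicates 3 and 4, the fetuses farthest from the median Ppargc1a level, r was -0.87 (exact permutation p = 0.0361, adjusted p = 0.0833). Leaving out 1 library kept r between -0.92 and -0.78, but the adjusted p of the exact permutation test rose above 0.05 without saline replicate 1 (0.0875), 2 (0.0708), 4 (0.0958) or 5 (0.0563) and without oxytocin replicate 1 (0.0594). After thinning all libraries to the smallest total, r was -0.79 and the adjusted p 0.0685 in the exact permutation test. Both genes were read from the same libraries with the same scaling factors.

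**Figure D5:**
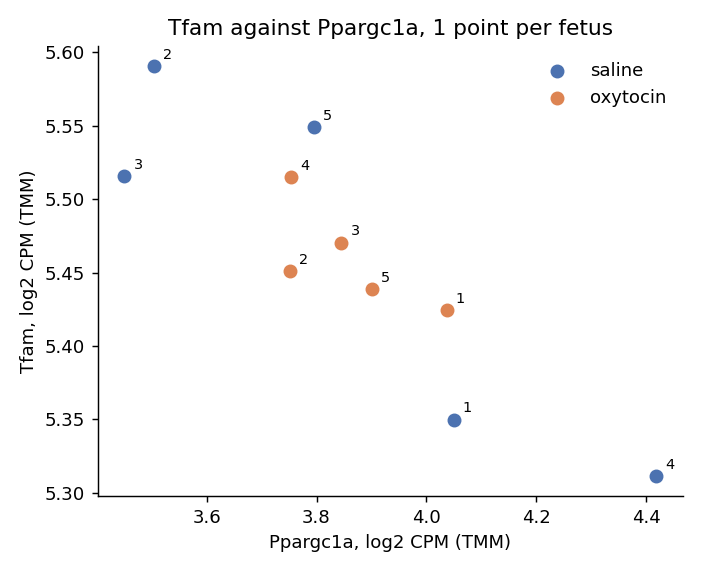
Tfam against Ppargc1a in log2 CPM (TMM-scaled), 1 numbered point per fetus, coloured by group. Points run from high Tfam and low Ppargc1a (saline replicates 2 and 3) to low Tfam and high Ppargc1a (saline replicates 1 and 4), with the oxytocin fetuses between them.

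Ppargc1a was compared with the main axis of variation among the libraries. The first principal component of the nuclear features held 28.2% of the variance of log2 CPM, and its highest scores belonged to saline replicate 4, oxytocin replicate 1 and saline replicate 1, the fetuses that ranked 1, 3 and 2 for Ppargc1a. Oxytocin replicate 5 ranked 4 for Ppargc1a and 9 on the component, and oxytocin replicate 4 ranked 7 and 4. Both genes were among the features that formed the component, and its sign was set so that saline replicate 4 scored positive. The share of all features with as large an r was not computed. These relations were added after looking, so their p values are no independent evidence. On deviations from the group means, Ppargc1a correlated with the component at r = 0.84 (exact two-sided permutation within groups, p = 0.0042, adjusted p = 0.0125 over 3 added relations) and rho = 0.73 (exact permutation p = 0.0271, adjusted p = 0.0506). Without oxytocin replicate 1 and saline replicate 4, the fetuses farthest from the median score, r was 0.81 over the 8 others (exact permutation p = 0.0816). For Tfam r was -0.74 (exact two-sided permutation within groups, p = 0.0616, adjusted p = 0.0616) and rho was -0.49 (exact permutation p = 0.183, adjusted p = 0.183), and without the same fetuses r was -0.65. With this component as a covariate the log2 fold change of Ppargc1a was 0.045 ± 0.096 (SE) and that of Tfam was -0.016 ± 0.048 (SE), and edgeR's adjusted p was 0.965 and 0.976. Cell composition was not tested.

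Likeness to each gene was measured by Pearson's r of log2 CPM over the 10 libraries, as a description across the other 14399 tested features. The 2 features most like Tfam were ENSRNOG00000024707 on chromosome 5 (r = 0.95) and ENSRNOG00000025023 on chromosome 7 (r = 0.94). Those most like Ppargc1a were ENSRNOG00000005905 on chromosome 5 and ENSRNOG00000006617 on chromosome 4 (r = 0.96 each). The files do not pair these identifiers with names. An r of at least 0.9 was found with Ppargc1a for 102 features and with Tfam for 8, and an r of -0.9 or lower for 28 and 12. With each other the pair had r = -0.88, and 41 features had a lower r with Tfam and 52 with Ppargc1a. The relation of the pair was noticed in these same values, so these ranks are no independent evidence.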

How the data were processed

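Per the labels' protocols, total RNA of the right cortex was oligo-dT selected. The submitters' processing notes name bcl2fastq, STAR 2.0.4b, Subread featureCounts 1.45 and Rnor_5.0; strand setting, multi-mapping rule and annotation release are not given in the sources used here. The deposited counts are raw whole numbers of reads per gene. The deposited CPM is the count over the library's summed count, and the deposited RPKM is that CPM per kilobase of listed length (both tested on every feature).

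Counts were filtered with filterByExpr, scaled by TMM (factors 0.983 to 1.02) and tested with edgeR 4.0.16 in R 4.3.3 (glmQLFit and glmQLFTest, no covariates, 10 libraries), with Benjamini-Hochberg adjustment over 14400 features. SEs are the log2 fold change over the square root of F. Levels in log2 CPM use a prior count of 2. Single values were tested by exact permutation. Alternatives used DESeq2 1.42.0, limma 3.58.1, other scalings and filters, and left-out libraries. Tests were tried on simulated data.

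The 2 genes and the lists were chosen with earlier results of these data known. Named genes were to be the pair, the most abundant and most changed members of each list, and the 3 features most like each gene; with identifiers unpaired, the lists gave none and 2 features per gene are printed. The 37 mitochondrial features were named by their fixed order, which matched the listed strand for 37 of 37. Each fetus came from a separate dam.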

Additional observations from a re-analysis of the deposited data

How the results depend on the processing

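The absence of a call for Tfam and Ppargc1a held under every alternative with an adjusted p; DESeq2's independent filtering gave neither gene one (unadjusted p 0.898 and 0.877). The sign of both changes was not stable. Tfam was at 0.0137 with limma voomWithQualityWeights and ran from -0.0445 to 0.0247 without each library; Ppargc1a was at 0.0448 with the first principal component as covariate and ran from -0.115 to 0.146. Genes past an adjusted p of 0.05 numbered 11 with DESeq2, 1 with that covariate and 0 without each library (420 to 841 at an unadjusted p under 0.05). At that unadjusted p, 278 of 514 were higher with TMM and 167 of 659 when libraries were scaled by size alone. Without each library the log2 ratio of mitochondrial counts ran from 0.143 to 0.255 for Tfam and from 0.0539 to 0.294 for Ppargc1a, and that of Tfam to Ppargc1a from -0.200 to 0.0988. With the 13 protein genes alone the mitochondrial ratio to Tfam was 0.222 (exact permutation p = 0.0476, adjusted p = 0.143).

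The correlation with mitochondrial share ran without each library from -0.633 to -0.427 for Tfam and from -0.0685 to 0.366 for Ppargc1a, and the latter was -0.0950 without the 2 libraries farthest from the median. That between the genes, chosen after seeing the data with all its alternatives, was -0.794 with thinned counts, -0.870 without the 2 farthest libraries, and -0.923 to -0.778 without each library. The cause of these differences was not tested. The principal-component covariate was also chosen after the data were seen. With 5 fetuses a group, a change of Ppargc1a inside its interval is not excluded. No paired analysis was possible because the replicate numbers used here follow accession order and the labels give none; each fetus came from a separate dam.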
